A study of Rattus norvegicus with 8 samples.

Results

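The 10 genes of lipid handling described here were followed by symbol through the UMI counts (unique molecular identifiers, 1 per captured transcript) of 8 single-cell libraries of rat spinal cord, as 10 of 32623 annotated genes. They were the apolipoproteins Apoe (ENSRNOG00000018454) and Apoc1 (ENSRNOG00000018426), the fatty acid binding proteins Fabp4 (ENSRNOG00000010805) and Fabp5 (ENSRNOG00000049075), lipoprotein lipase Lpl (ENSRNOG00000012181), the sterol exporters Abca1 (ENSRNOG00000018126) and Abcg1 (ENSRNOG00000001158), the droplet coat Plin2 (ENSRNOG00000007060), and the membrane proteins Trem2 (ENSRNOG00000013578) and Gpnmb (ENSRNOG00000008816). The list was chosen by name and not by a threshold on these counts. The cords came from female Wistar rats 8 weeks old. In the mild, moderate and severe groups a 10 g weight was dropped on the exposed cord at vertebra T9 from 12.5 mm, 25 mm and 50 mm, and the sham group had the laminectomy alone. A 10 mm piece of cord was dissociated 7 days later, and each group held 2 libraries. The labels number the libraries as replicates but do not say what separates them, so the p-values below measure the spread between these libraries, which may be partly technical.

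Foamy macrophages are phagocytes that have taken up more lipid, in an injured cord mostly from broken myelin, than they have broken down or released. Sterol from digested membranes is esterified into droplets or passed out of the cell through ABC transporters to apolipoprotein particles, under the sterol-sensing LXR receptors, and fatty acids are carried in the cytosol by binding proteins and sensed by PPAR receptors. TREM2 is a surface receptor for lipids and lipoproteins, and GPNMB is a glycoprotein of lysosome-rich phagocytes. The libraries hold RNA counts and no measurement of lipid, so whether a cell was foamy is not known here, and the genes are called by their role in lipid handling.

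After filtering, 55455 of 68658 cells remained, 2336 to 10016 per library, with median depths of 2745 to 10836 UMIs per cell. Cells were assigned to types from markers that include none of the 10 genes, which gave 28531 macrophages/microglia, 787 to 7376 per library, and the levels below are in CPM, the UMIs of a gene scaled to the summed UMIs of the gated cells of a library. The 10 genes share no length correction in these 3′ counts, so levels are compared between samples and cell types and only roughly between genes. Libraries shared 5 to 40 cell barcodes per pair, at most 0.452% of the smaller library. Sham replicate 1 stood apart from its label's partner, with 4299 gated neutrophils where sham replicate 2 had 1. Its macrophage/microglia gate held 5147 CPM summed over the 12 neutrophil markers, with Ltf and Ngp at 0, against 192 CPM in sham replicate 2 and 80.2 to 336.9 CPM in the injured libraries. The median depth of its gated cells was 4480 UMIs, against 9602.5 in sham replicate 2. Microglia-type cells, assigned from markers such as P2ry12 and Tmem119, made up 30.0% of its gate and 86.1% of that of sham replicate 2, and 4.43% to 19.7% in the injured libraries. Each comparison of macrophages/microglia with sham is therefore also given without sham replicate 1, which leaves 1 sham library whose spread is assumed to equal that of the other groups.

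The RefSeq promoters of 6 of the 10 genes were at hand, on assembly GRCr8, which is not the Rnor_6.0 build of the counts. The 3 genes with a single promoter entry are shown, since they hold a sterol exporter and the 2 membrane proteins whose levels behaved differently below. Each run is 300 bases, 5′ to 3′ on the gene's strand, ending 50 bases past the annotated start. Capitals mark matches, on either strand, to CACGTG (the E-box bound by helix-loop-helix factors), TCACATGA (the M-box form bound by MITF-family factors) and GAGGAA (the core bound by the myeloid factor PU.1).
Gpnmb, chr4:79340878-79341177 (+): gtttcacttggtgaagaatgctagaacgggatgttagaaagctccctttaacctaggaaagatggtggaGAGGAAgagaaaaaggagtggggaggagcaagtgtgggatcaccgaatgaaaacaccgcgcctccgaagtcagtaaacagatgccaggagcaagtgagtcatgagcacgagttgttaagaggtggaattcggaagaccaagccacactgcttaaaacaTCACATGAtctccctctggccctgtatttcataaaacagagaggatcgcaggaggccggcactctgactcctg
Abca1, chr5:72596424-72596723 (-): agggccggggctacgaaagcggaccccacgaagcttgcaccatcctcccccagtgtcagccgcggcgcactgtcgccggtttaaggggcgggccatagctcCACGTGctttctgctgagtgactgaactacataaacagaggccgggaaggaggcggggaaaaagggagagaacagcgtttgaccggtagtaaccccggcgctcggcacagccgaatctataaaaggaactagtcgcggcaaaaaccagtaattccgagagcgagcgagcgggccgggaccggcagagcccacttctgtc
Trem2, chr9:20151730-20152029 (-): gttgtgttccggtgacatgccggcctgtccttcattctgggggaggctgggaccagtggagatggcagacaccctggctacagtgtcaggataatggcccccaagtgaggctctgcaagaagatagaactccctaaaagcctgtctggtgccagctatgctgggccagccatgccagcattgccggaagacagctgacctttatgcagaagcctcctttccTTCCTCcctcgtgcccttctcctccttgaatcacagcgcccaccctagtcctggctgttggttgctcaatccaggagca
The Gpnmb promoter held TCACATGA starting 23 bases before the start site and GAGGAA 181 bases before it. The Abca1 promoter held CACGTG 149 bases before the start, and the Trem2 promoter held GAGGAA 29 bases before it. Among all 33469 promoters of the table, 6.42% held CACGTG, 1.16% held TCACATGA and 27.6% held GAGGAA. Of the genes with more than 1 entry, a Plin2 promoter held CACGTG and an Apoe promoter held GAGGAA, and neither entry of Apoc1 held any of the 3. Fabp4, Fabp5, Lpl and Abcg1 had no entry. A match describes these letters and no binding was measured.

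Cell types were ranked only where most libraries held at least 20 gated cells of the type, which left 8 types. Astrocytes and B cells were among those not ranked. Among the 8, macrophages/microglia had the highest mean level of 7 of the 10 genes. Apoe averaged 40072 ± 24176 CPM (SD, n = 8) there, and endothelial cells came next with 9763 ± 4014 CPM (SD, n = 5), a gap wider than the sum of both SDs. This order did not hold in sham replicate 1. Its fibroblasts held 4576 CPM and its endothelial cells 3949 CPM of Apoe, above the 3260 CPM of its macrophages/microglia. In injured libraries macrophages/microglia held 20839 to 65676 CPM, above both types. Trem2 averaged 825 ± 279.7 CPM (SD, n = 8), and no other ranked type's mean was over 44.9 CPM. Abca1 averaged 181 ± 104 CPM (SD, n = 8) and its next ranked type, neutrophils, 28.5 ± 23.8 CPM (SD, n = 7). These 3 genes and Fabp5 were the ones whose first and second ranked types were apart by more than their spread in favour of macrophages/microglia. With the stricter gate of the closing section, the 27 astrocytes of moderate replicate 1 held 135 CPM of Abca1. The macrophages/microglia of that library held 308 CPM under that gate.

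Fabp5 was also found in the oligodendrocyte lineage. Macrophages/microglia averaged 2615 ± 1422 CPM (SD, n = 8), oligodendrocyte precursors 794 ± 172 CPM (SD, n = 8) and oligodendrocytes 471 ± 68.3 CPM (SD, n = 8). In sham replicates 1 and 2 the precursors, at 472 and 667 CPM, were above the macrophages/microglia of the same libraries, at 239 and 482 CPM. In all 6 injured libraries the order was the opposite. Astrocytes were not ranked. With the stricter gate, the 27 astrocytes of moderate replicate 1 held 6151 CPM of Fabp5, above the 2885 CPM of its macrophages/microglia. RefSeq lists Fabp5 pseudogenes in the rat, and whether their reads were counted as Fabp5 is not known here.

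For Apoc1 (1054 ± 910.5 CPM (SD, n = 8)) and Fabp4 (645 ± 507 CPM (SD, n = 8)) macrophages/microglia had the highest mean, but the spread over libraries reached that of neutrophils, whose means were 133 ± 154 CPM (SD, n = 7) and 78.3 ± 123 CPM (SD, n = 7). This spread spans sham and injured libraries. Over the injured libraries Fabp4 ran from 594 to 1683 CPM in macrophages/microglia and from 8.61 to 350 CPM in neutrophils, without overlap. Apoc1 ran from 290 to 2294 CPM and from 31.1 to 365 CPM, which overlapped between libraries. Of the injured libraries, only mild replicate 1 held under 365 CPM of Apoc1 in macrophages/microglia. With the stricter gate of the closing section, that library held 293 CPM in macrophages/microglia and 28.6 CPM in neutrophils. Abcg1 was low in every ranked type. Its highest mean among these was in dendritic cells, at 65.5 ± 38.8 CPM (SD, n = 5). Macrophages/microglia (39.3 ± 14.7 CPM (SD, n = 8)), endothelial cells (38.6 ± 17.8 CPM (SD, n = 5)) and T cells/NK cells (37.0 ± 17.4 CPM (SD, n = 7)) overlapped with dendritic cells. B cells, which were not ranked, held 42.4 and 135 CPM of Abcg1 in 2 injured libraries and 33.8 CPM in 1 sham library. Lpl, which frees fatty acids from lipoproteins, was also low. Its mean in fibroblasts, 59.1 ± 143 CPM (SD, n = 7), came from sham replicate 1 with 383 CPM, while the other 6 libraries held 1.01 to 9.87 CPM. Endothelial cells held 35.6 ± 16.9 CPM (SD, n = 5) and macrophages/microglia 28.4 ± 13.1 CPM (SD, n = 8), which overlapped.

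Plin2 and Gpnmb were shared with neutrophils. Plin2, which coats lipid droplets in most cell types, had its highest mean in neutrophils, at 1699 ± 877 CPM (SD, n = 7), against 279 ± 233 CPM (SD, n = 8) in macrophages/microglia, a gap wider than the sum of the SDs. In neutrophils, Plin2 stood at 595 CPM in sham replicate 1, 1364 and 1103 in mild, 1230 and 2699 in moderate and 2988 and 1914 in severe injury. Neutrophils were above the macrophages/microglia of the same library in all 7 libraries with at least 20 of both. Gpnmb averaged 1503 ± 738 CPM (SD, n = 7) in neutrophils, which overlapped with 2937 ± 1598 CPM (SD, n = 8) in macrophages/microglia. These SDs span sham and injured libraries. Within each library with at least 20 of both, macrophages/microglia held more Gpnmb than neutrophils. In neutrophils, Gpnmb stood at 111 CPM in sham replicate 1, 1843 and 1211 in mild, 1364 and 2254 in moderate and 2239 and 1498 in severe injury. The neutrophils of sham replicate 1 were far below the other libraries. The gated neutrophils were shallow, with medians of 697 to 2617 UMIs per cell. Per 1000 Apoe UMIs they held 219 to 6483 Plin2 UMIs, against 3.42 to 43.8 in macrophages/microglia, and 243 to 3417 Gpnmb UMIs against 41.1 to 179.7. Both ratios were higher in neutrophils in 7 of 7 libraries. This did not set neutrophils apart, since both were also higher in oligodendrocyte precursors than in macrophages/microglia in every library. The precursors held 10.8 to 150.8 Plin2 and 98.9 to 1405 Gpnmb UMIs per 1000 Apoe UMIs. In sham replicate 1 they held 438 CPM of Gpnmb, above the 358 CPM of its macrophages/microglia. The part of RNA from other cells in these values was not tested.

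**Figure D1:**
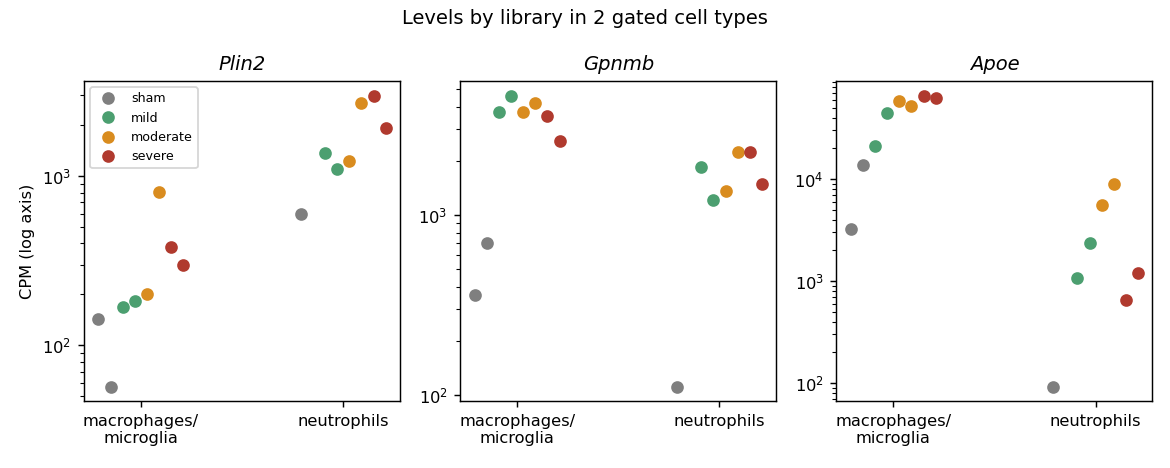
Plin2, Gpnmb and Apoe in gated macrophages/microglia and neutrophils, in CPM on a log axis, 1 point per library coloured by injury group. Plin2 is higher in neutrophils in each library that has both, and Gpnmb and Apoe are lower. Taken over all libraries, the levels of Gpnmb overlap.

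Within libraries, macrophages/microglia were compared with the mean of 7 other types (dendritic cells, endothelial cells, fibroblasts, neutrophils, oligodendrocyte precursors, oligodendrocytes and T cells/NK cells) by edgeR's quasi-likelihood test with library as a block. All 10 genes were called higher, where 56.9% of the 12238 genes tested were called in either direction. The log2 differences ran from 1.66 for Abcg1 to 6.31 for Trem2, with a median of 4.30 beside 0.15 over all genes tested. The higher call for Plin2, 2.65 (SE 0.15, adjusted p = 3.93e-21), stands beside its still higher level in neutrophils, since the other types enter as a mean.

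**Figure D2:**
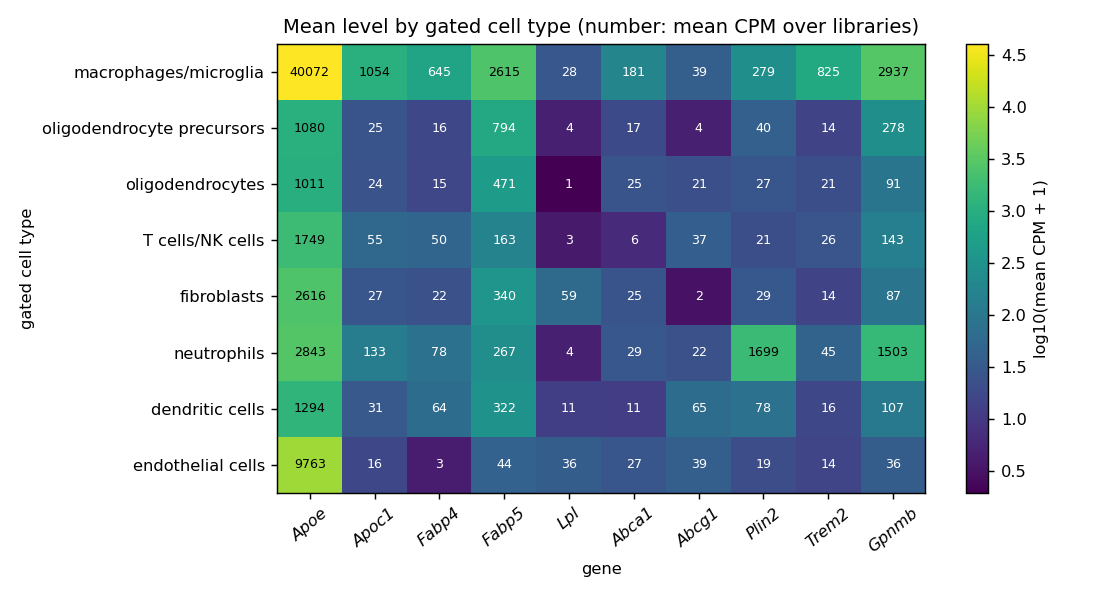
Mean level of each gene (columns) in each ranked cell type (rows), coloured by log10(mean CPM + 1), with the mean CPM over libraries printed in each cell. The macrophage/microglia row is highest for 7 genes, and Plin2 is highest in neutrophils, Lpl in fibroblasts and Abcg1 in dendritic cells.

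In the macrophages/microglia of injured cords the apolipoproteins, both fatty acid binding proteins and Gpnmb were above both sham libraries in all 6 injured libraries. The share of all genes without overlap between these libraries is not given here. The study asked how the cord's cells change with the grade of contusion, and each injured group was compared with sham by edgeR's quasi-likelihood test in 1 fit of the 8 libraries, with Benjamini-Hochberg adjustment over 13360 genes. Of the 10 genes, 3 were called higher in mild, 4 in moderate and 6 in severe injury and none lower, where 6.48%, 2.21% and 8.05% of all genes tested were called. The median log2 fold changes of the 10 were 1.48, 2.58 and 2.65, beside -0.02, 0.02 and -0.09 over all genes. The 3 comparisons share the sham libraries.

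**Figure D3:**
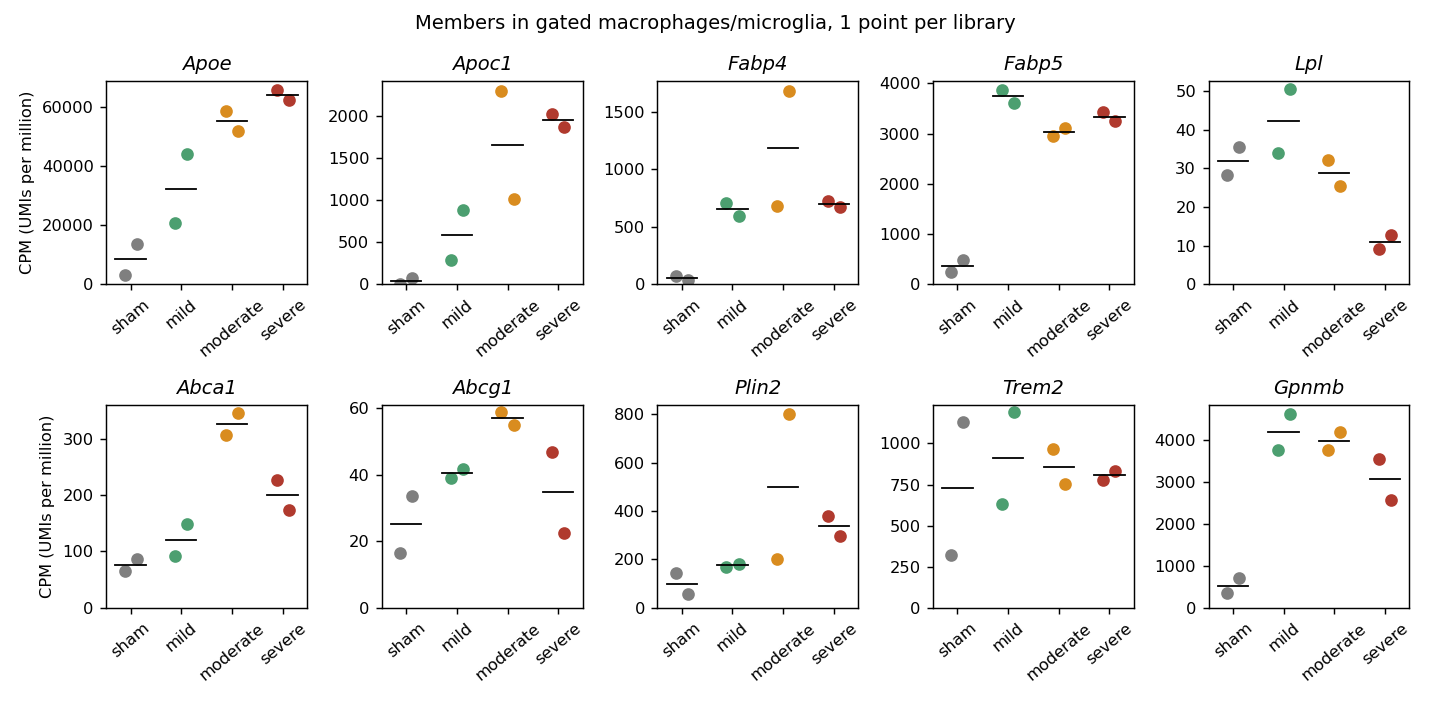
CPM of each gene in gated macrophages/microglia on a linear axis from 0, 1 point per library with 2 per group, the horizontal bar being the group mean. Apoe, Apoc1, Fabp4, Fabp5, Gpnmb, Abca1 and Plin2 have all 6 injured libraries above both sham libraries, while Trem2, Lpl and Abcg1 overlap.

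Apoe, the main lipid carrier of the central nervous system, was the most abundant of the 10. Apoe stood at 3260 and 13593 CPM in sham, 20839 and 43945 in mild, 58761 and 51996 in moderate and 65676 and 62504 in severe injury. The groups did not overlap, but sham replicate 2 was well above sham replicate 1. Apoe had a log2 fold change of 1.96 (SE 0.72, adjusted p = 0.12) in mild, 2.69 (SE 0.74, adjusted p = 0.0985) in moderate and 3.33 (SE 0.76, adjusted p = 0.0383) in severe injury, so that only the last was called. Without sham replicate 1 it was 1.23 (SE 0.48, adjusted p = 0.112), 1.93 (SE 0.50, adjusted p = 0.0449) and 2.60 (SE 0.52, adjusted p = 0.0159).

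Apoc1, which lies beside Apoe in the genome and modulates lipoprotein binding and clearance, had the widest range. Apoc1 stood at 6.54 and 71.5 CPM in sham, 290.0 and 876 in mild, 2294 and 1014 in moderate and 2015 and 1867 in severe injury. Every injured library lay above both sham libraries. Apoc1 had a log2 fold change of 3.88 (SE 1.10, adjusted p = 0.069) in mild, 5.34 (SE 1.18, adjusted p = 0.0602) in moderate and 5.99 (SE 1.21, adjusted p = 0.0287) in severe injury. Without sham replicate 1 all 3 were called, at 3.01 (SE 0.75, adjusted p = 0.0326), 4.44 (SE 0.81, adjusted p = 0.015) and 5.12 (SE 0.85, adjusted p = 0.00796).

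Fabp4, a binding protein of adipocytes and lipid-loaded macrophages, was called in each injured group. Fabp4 stood at 67.4 and 32.5 CPM in sham, 706 and 594 in mild, 678 and 1683 in moderate and 724 and 671 in severe injury. Moderate replicate 2 was the highest, and the other 5 injured libraries were close together. Fabp4 had a log2 fold change of 3.87 (SE 0.48, adjusted p = 0.0141) in mild, 4.69 (SE 0.50, adjusted p = 0.0116) in moderate and 4.36 (SE 0.49, adjusted p = 0.00472) in severe injury.

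Fabp5, its epidermal-type relative, was also called in each injured group. Fabp5 stood at 239 and 482 CPM in sham, 3864 and 3616 in mild, 2943 and 3103 in moderate and 3427 and 3243 in severe injury. The 6 injured libraries spanned a narrow range far above sham. Fabp5 had a log2 fold change of 3.43 (SE 0.44, adjusted p = 0.0177) in mild, 3.08 (SE 0.44, adjusted p = 0.0262) in moderate and 3.65 (SE 0.45, adjusted p = 0.00597) in severe injury.

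Gpnmb was called in each injured group too. Gpnmb stood at 358 and 704 CPM in sham, 3745 and 4617 in mild, 3757 and 4192 in moderate and 3552 and 2568 in severe injury. Again no injured library came near sham. Gpnmb had a log2 fold change of 3.04 (SE 0.45, adjusted p = 0.0199) in mild, 2.92 (SE 0.45, adjusted p = 0.0303) in moderate and 2.97 (SE 0.45, adjusted p = 0.0124) in severe injury, and each was still called without sham replicate 1, as were those of Fabp4 and Fabp5. The values without it were 2.55 (SE 0.35, adjusted p = 0.00501), 2.40 (SE 0.35, adjusted p = 0.00697) and 2.47 (SE 0.35, adjusted p = 0.00445) for Gpnmb, 4.30 (SE 0.58, adjusted p = 0.00476), 5.09 (SE 0.61, adjusted p = 0.00464) and 4.78 (SE 0.60, adjusted p = 0.00298) for Fabp4, and 2.93 (SE 0.32, adjusted p = 0.00377), 2.55 (SE 0.31, adjusted p = 0.00464) and 3.15 (SE 0.32, adjusted p = 0.0015) for Fabp5.

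Of the 2 exporters only Abca1 was called in the fit of all libraries, and no test compared the 2 genes. Abca1, which loads sterol onto lipid-poor apolipoproteins, was called in moderate and severe injury. Abca1 stood at 66.1 and 87.0 CPM in sham, 92.4 and 149 in mild, 307 and 346 in moderate and 227 and 174 in severe injury. Mild replicate 1 was only just above the higher sham library, and the moderate libraries were highest. Abca1 had a log2 fold change of 0.74 (SE 0.33, adjusted p = 0.182) in mild, 2.14 (SE 0.35, adjusted p = 0.0329) in moderate and 1.85 (SE 0.34, adjusted p = 0.0224) in severe injury. The values of Abca1 without sham replicate 1 were 0.45 (SE 0.34, adjusted p = 0.371), 1.81 (SE 0.36, adjusted p = 0.0191) and 1.55 (SE 0.35, adjusted p = 0.0247). Abcg1, which loads sterol onto mature high-density particles, was not called in any group. Abcg1 stood at 16.6 and 33.7 CPM in sham, 39.0 and 41.8 in mild, 58.9 and 55.0 in moderate and 46.8 and 22.6 in severe injury. Severe replicate 2 lay between the sham libraries, so the groups overlapped. Its log2 fold change was 0.73 (SE 0.45, adjusted p = 0.311) in mild, 1.18 (SE 0.45, adjusted p = 0.18) in moderate and 0.88 (SE 0.45, adjusted p = 0.229) in severe injury. Its size rested on single libraries. Leaving out sham replicate 1 gave 0.24 (SE 0.36, adjusted p = 0.67), 0.66 (SE 0.37, adjusted p = 0.266) and 0.37 (SE 0.36, adjusted p = 0.515). Without sham replicate 2 it was 1.58, 2.03 and 1.73 and was called in all 3, with adjusted p = 0.0447, 0.032 and 0.0318. Without severe replicate 1 the severe value was 0.34 (adjusted p = 0.71).

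Plin2 did not pass the test in any group. Plin2 stood at 143 and 56.9 CPM in sham, 169 and 183 in mild, 201 and 802 in moderate and 381 and 298 in severe injury. All injured libraries were above both sham libraries, and moderate replicate 2 was the highest. Plin2 had a log2 fold change of 1.00 (SE 0.59, adjusted p = 0.291) in mild, 2.46 (SE 0.61, adjusted p = 0.08) in moderate and 2.33 (SE 0.61, adjusted p = 0.0559) in severe injury. Without sham replicate 1, whose gate carried the neutrophil markers above, it was 1.60 (SE 0.67, adjusted p = 0.131), 3.04 (SE 0.73, adjusted p = 0.0354) and 2.93 (SE 0.72, adjusted p = 0.0318). Neutrophils held more Plin2 than macrophages/microglia, and the part of neutrophil RNA in the sham value was not tested. Its value in moderate injury was 1.11 without moderate replicate 2.

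Trem2 and Lpl were not called in any group. Trem2 stood at 321 and 1131 CPM in sham, 629.8 and 1191 in mild, 964 and 754 in moderate and 775 and 835 in severe injury. Sham replicate 2 was as high as the injured libraries and sham replicate 1 was the lowest of the 8. The log2 fold change of Trem2 was 0.35 (SE 0.61, adjusted p = 0.731) in mild, 0.23 (SE 0.61, adjusted p = 0.857) in moderate and 0.56 (SE 0.61, adjusted p = 0.566) in severe injury, with a 95% interval for severe from -0.64 to 1.77. Its sign was not stable. It was -0.18 in mild injury without mild replicate 2. Without sham replicate 1 it was -0.33 (SE 0.39, adjusted p = 0.579), -0.49 (SE 0.39, adjusted p = 0.435) and -0.13 (SE 0.40, adjusted p = 0.854), and without sham replicate 2 it was 1.81, 1.68 and 2.02 and was called higher in mild and severe injury, with adjusted p = 0.0347 and 0.0216. Lpl stood at 28.2 and 35.6 CPM in sham, 33.8 and 50.5 in mild, 32.1 and 25.4 in moderate and 9.22 and 12.7 in severe injury. Both severe libraries were the lowest for Lpl. Its log2 fold change was 0.49 (SE 0.34, adjusted p = 0.357) in mild, -0.10 (SE 0.34, adjusted p = 0.886) in moderate and -1.05 (SE 0.34, adjusted p = 0.09) in severe injury. With sham replicate 1 left out it was 0.22 (SE 0.36, adjusted p = 0.692), -0.40 (SE 0.35, adjusted p = 0.481) and -1.32 (SE 0.35, adjusted p = 0.0404), so that the last was called.

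With 2 libraries per group several of these calls rested on single libraries. In mild injury Fabp4, Fabp5 and Gpnmb lost their call without mild replicate 1 (adjusted p = 0.0934, 0.0987 and 0.0996) or mild replicate 2 (0.0962, 0.0996 and 0.125). In moderate injury Fabp4 lost it without moderate replicate 2 (0.0715), and Fabp5, Gpnmb and Abca1 lost it without any 1 of the 6 injured libraries, with adjusted p from 0.0635 to 0.209. In severe injury Apoe lost it without any 1 of the 6 injured libraries (0.0635 to 0.128), Apoc1 and Abca1 without severe replicate 1 (0.10 and 0.109) or severe replicate 2 (0.0865 and 0.0715), and Gpnmb without severe replicate 1 (0.0677). Fabp4 and Fabp5 in severe injury were called in all 8 of these fits. Without sham replicate 2, Apoe rose by 3.62 (adjusted p = 0.0101) in mild and 4.34 (0.011) in moderate injury, and Apoc1 by 6.78 (0.00803) and 8.24 (0.00921), and all 4 were called. Plin2 in severe injury was called without moderate replicate 1 (0.0284) or moderate replicate 2 (0.0274).

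Between the grades of injury the genes differed less. The slope per step from mild to moderate to severe, each step doubling the drop height, was fitted over the 6 injured libraries, and none of the 10 genes was called, where 1.96% of 12614 genes were. At an unadjusted p under 0.05, Apoe (0.68 (SE 0.19, adjusted p = 0.116)), Apoc1 (1.06 (SE 0.30, adjusted p = 0.114)) and Lpl (-0.77 (SE 0.16, adjusted p = 0.0502)) stood out among the 10. DESeq2 called 3 of the 10, which were Apoe, Apoc1 and Lpl. Its calls over all genes are given in the closing section, and the share of all genes at an unadjusted p under 0.05 is not given here. The slopes of Gpnmb and Fabp5, -0.03 (SE 0.14, adjusted p = 0.93) and 0.11 (SE 0.15, adjusted p = 0.728), had 95% intervals from -0.31 to 0.24 and from -0.17 to 0.40. Without moderate replicate 2, Lpl (adjusted p = 0.0470) and Plin2 (0.0445) were called, as falling and rising.

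The gate mixes cells of different origin, and its make-up moved with injury as given above. Over the gate, the 9 microglia-type markers summed to 621 and 1784 CPM in sham replicates 1 and 2. In the injured libraries they summed to 297 to 482 CPM. Microglia low in these markers would fall outside the microglia-type class, and whether this occurred was not tested. In microglia-type cells alone, none of the 10 genes was called for the mean of the injured groups against sham, where 0.854% of 10539 genes were. At an unadjusted p under 0.05 there were 6, Apoc1, Fabp4, Fabp5, Gpnmb, Abca1 and Plin2. DESeq2 called 5, those 6 without Abca1. How many of all genes DESeq2 called is given in the closing section. How many had an unadjusted p under 0.05 is not given here. Gpnmb was the nearest to a call. In microglia-type cells, Gpnmb stood at 272 and 529.5 CPM in sham, 1296 and 2160 in mild, 1401 and 2387 in moderate and 657 and 691 in severe injury. The 2 groups did not overlap, and the log2 fold change was 1.69 (SE 0.42, adjusted p = 0.0882). In microglia-type cells, Fabp4 stood at 11.9 and 4.18 CPM in sham, 32.9 and 35.7 in mild, 52.1 and 434 in moderate and 18.9 and 17.7 in severe injury. Fabp4 was low throughout and moderate replicate 2 was far above the rest, with a log2 fold change of 2.98 (SE 0.75, adjusted p = 0.0904). For Apoe it was 1.04 (SE 0.49, adjusted p = 0.273) and for Trem2 0.30 (SE 0.48, adjusted p = 0.765). Without sham replicate 1, Fabp4 was called (3.55 (SE 0.89, adjusted p = 0.0452)), and Gpnmb was 1.19 (SE 0.38, adjusted p = 0.106). Without sham replicate 2, Apoe, Apoc1, Fabp5, Abca1, Trem2 and Gpnmb were called, with adjusted p from 0.00236 for Apoc1 to 0.0421 for Abca1. Without moderate replicate 1, Fabp4 (0.0223) and Plin2 (0.0415) were called.

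Border-type cells, assigned from Mrc1, Cd163 and related markers of macrophages at the cord's borders, held the highest Apoe of the 3 subclasses in all 6 injured libraries, but not in sham replicate 1. In sham replicate 2 a subclass had under 20 cells, so the 3 were not ranked, and border-type cells were above microglia-type cells. In border-type cells, Apoe stood at 3092 and 42520 CPM in sham, 29006 and 56999 in mild, 82993 and 55020 in moderate and 90403 and 92214 in severe injury. Sham replicate 2 overlapped with the injured libraries there, from only 118 cells. Apoc1, Fabp4, Plin2 and Gpnmb of border-type cells were above both sham libraries in all 6 injured libraries, and the other 6 genes overlapped. For these cells too, the share of all genes without overlap is not given.

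Subclasses also differed within libraries. Infiltrating-type cells, assigned from markers such as Fn1, Vcan and Ms4a7 of recruited monocyte-derived cells, were compared with microglia-type cells of the same library in the 7 libraries with at least 20 cells of each. Sham replicate 2, with 19 infiltrating-type cells, did not enter. Of the 10 genes 8 were called higher and 1, Trem2, lower, where 51.4% of 11452 genes were called in either direction. The median log2 difference of the 10 was 1.63 beside -0.02 over all genes tested.

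Fabp4 differed most. In infiltrating-type cells, Fabp4 stood at 183 CPM in sham replicate 1, 997 and 895 in mild, 1225 and 2193 in moderate and 1109 and 1337 in severe injury. In microglia-type cells moderate replicate 2 held 434 CPM and the other 6 libraries 11.9 to 52.1 CPM, and infiltrating-type cells were higher in 7 of 7 libraries, with a log2 difference of 4.87 (SE 0.40, adjusted p = 1.38e-06). Apoc1 followed with 4.20 (SE 0.47, adjusted p = 1.38e-05) and Fabp5 with 3.39 (SE 0.24, adjusted p = 3.74e-07). In infiltrating-type cells, Fabp5 stood at 456 CPM in sham replicate 1, 5866 and 5806 in mild, 4419 and 4272 in moderate and 4544 and 4871 in severe injury. Fabp5 of microglia-type cells was at most 726 CPM. Gpnmb (1.85 (SE 0.20, adjusted p = 1.01e-05)), Plin2 (1.65 (SE 0.16, adjusted p = 3.94e-06)) and Apoe (1.60 (SE 0.31, adjusted p = 0.000946)) were higher by less, and the exporters less so, with Abca1 at 0.95 (SE 0.14, adjusted p = 0.000163) and Abcg1 at 0.69 (SE 0.14, adjusted p = 0.0013). Fabp4, Fabp5, Gpnmb and Plin2 were higher in 7 of 7 libraries and the other 4 in 6 of 7. In sham replicate 1, infiltrating-type cells held 1777 CPM of Apoe and 3.95 CPM of Apoc1, below the 3832 and 7.41 CPM of its microglia-type cells. The exception was moderate replicate 2 for Abca1 and moderate replicate 1 for Abcg1.

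Trem2 went the other way. In infiltrating-type cells, Trem2 stood at 164 CPM in sham replicate 1, 341 and 866 in mild, 726 and 506 in moderate and 483 and 615 in severe injury. In microglia-type cells, Trem2 stood at 323 and 1138 CPM in sham, 706 and 1291 in mild, 914 and 814 in moderate and 907 and 917 in severe injury. Microglia-type cells were higher in 7 of 7 libraries, with a log2 difference of -0.50 (SE 0.09, adjusted p = 0.00053). Border-type cells had an injured median of 1013 CPM of Trem2, beside 910 in microglia-type and 560 in infiltrating-type cells. Their injured medians of Apoc1 and Gpnmb, 1751 and 4328 CPM, were near the 1734 and 4237 CPM of infiltrating-type cells. Those of Fabp4 and Fabp5, 643 and 3159 CPM, were below the 1167 and 4708 CPM of infiltrating-type cells. Lpl did not pass the test, at -0.26 (SE 0.17, adjusted p = 0.206). All 9 calls were made again without each library in turn. The subclasses were scored from markers, 5783 assigned cells led by less than 0.1 over their next subclass, and 8758 macrophages/microglia were assigned to none.

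**Figure D4:**
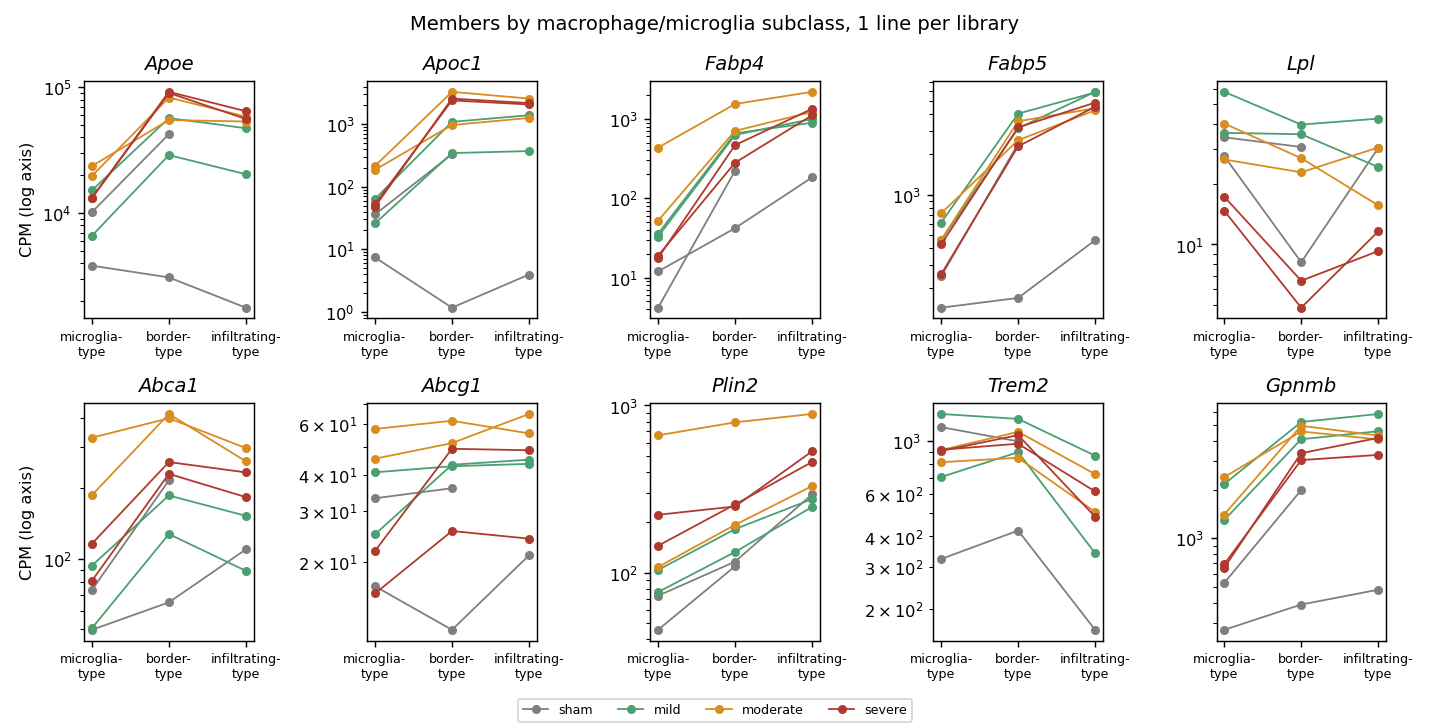
CPM of each gene on a log axis in microglia-type, border-type and infiltrating-type cells, 1 line per library coloured by injury group. Fabp4, Fabp5 and Apoc1 are higher in infiltrating-type than in microglia-type cells in every injured library, while Trem2 is lower. Border-type cells, drawn between them, do not always lie between them in level.

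**Figure D5:**
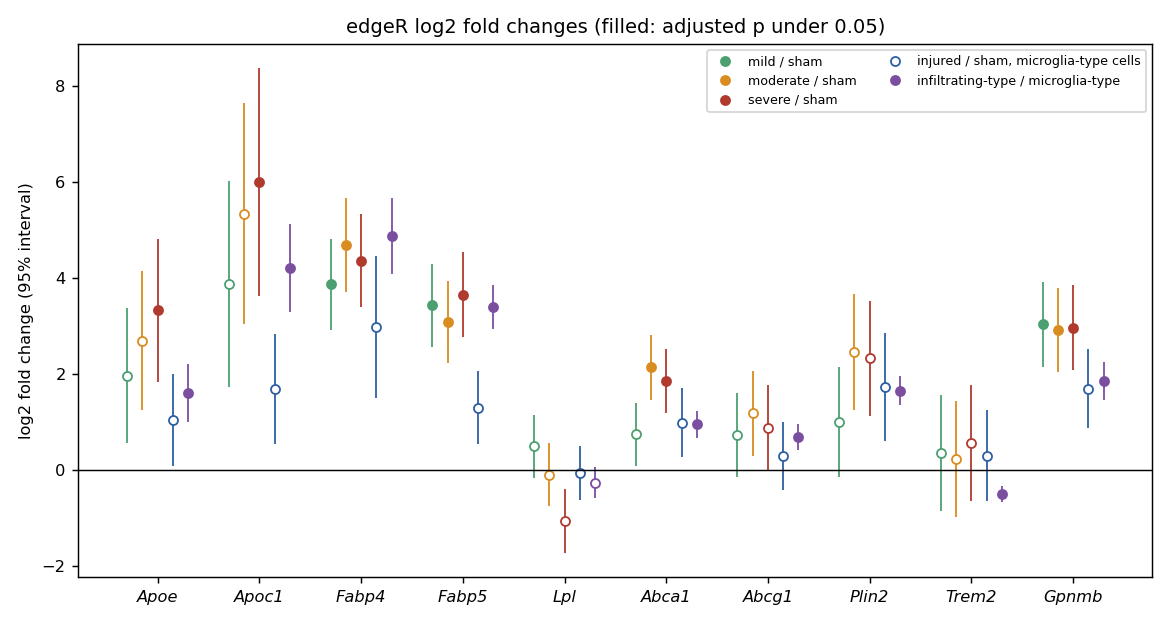
Log2 fold changes of the 10 genes with 95% intervals from the normal quantile for 5 comparisons, filled where the adjusted p was under 0.05. The infiltrating-type against microglia-type points are filled for 9 genes and the microglia-type injury points for none.

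How widely the genes were spread over cells also differed. After each cell was thinned to 1000 UMIs, which left out 1165 shallower macrophages/microglia, a UMI of Apoe was found in 88.8% ± 11.5 of them (SD, n = 8 libraries), of Gpnmb in 64.9% ± 26.4, of Fabp5 in 53.8% ± 22.6 and of Trem2 in 46.1% ± 14.0. For Fabp4 the share was 22.7% ± 15.7, for Plin2 21.6% ± 14.1, for Apoc1 20.8% ± 13.7 and for Abca1 13.9% ± 7.45. Abcg1 and Lpl were rare, at 3.58% ± 1.28 and 2.16% ± 1.05. Erythroid cells had medians of 3440 to 7320 UMIs, against 4480 to 16387.5 in macrophages/microglia. They held Apoe in 18.7% ± 12.4 of thinned cells and Gpnmb in 2.0% ± 1.96 (n = 3), with the other 8 genes at 0 to 3.21%. Whether these UMIs were the erythroid cells' own RNA was not tested. The erythroid values came from sham replicate 1 and severe replicates 1 and 2 only. Neutrophils held Apoe in 65.2% ± 31.5 of thinned cells and Gpnmb in 47.3% ± 28.4 (n = 7). For T cells/NK cells these shares were 58.45% ± 33.9 and 11.5% ± 12.96 (n = 7). For oligodendrocytes they were 42.5% ± 29.1 and 7.87% ± 6.06 (n = 8). The erythroid shares were the lowest of these for both genes. Without thinning the macrophage/microglia shares were 95.7% for Apoe, 83.2% for Gpnmb and 14.9% for Lpl.

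The richest cells held much of the UMIs of Lpl, Apoc1 and Fabp4, a share that low counts raise by themselves. Sham replicate 1 held 39 Apoc1 UMIs in 787 macrophages/microglia, so its richest 10% had to hold all of them. Moderate replicate 1 held 157647 Apoc1 UMIs, and its richest 10% held 67.4% of them. The 10% of macrophages/microglia richest in a gene held 69.5% to 100% of the UMIs of Lpl over the 8 libraries, 67.3% to 100% of those of Apoc1 and 44.6% to 100% of those of Fabp4, the lowest for Fabp4 being moderate replicate 2. For Gpnmb the richest 10% held 28.7% to 63.7% and for Apoe 29.5% to 60.6%. For Abcg1, with few UMIs, they held 42.3% to 100%. Among thinned cells, those with a Fabp4 UMI held more Fabp5 than those without in 8 of 8 libraries, with a median ratio of mean UMIs of 2.98, and more Gpnmb in 8 of 8, with a ratio of 2.0. Trem2 was nearly level between them, with a median ratio of 1.13 and higher values in 6 of 8 libraries. Cells with a Plin2 UMI held less Trem2 in 7 of 8 libraries, with a median ratio of 0.84. Gpnmb-positive cells held more of Apoe, Apoc1, Fabp4, Fabp5, Abca1, Abcg1 and Trem2 in 8 of 8 libraries. Cells of 1 library share their source, so these are descriptions without a test.

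Beside the 10 genes, a list of 71 genes of the same pathways was followed, of which 64 to 69 were tested in a comparison. In macrophages/microglia of mild, moderate and severe injury 11, 7 and 11 of the 69 tested rose and 2, 1 and 2 fell. Of all genes tested, 3.74%, 1.59% and 5.10% rose and 2.75%, 0.614% and 2.94% fell. Angptl4, a PPAR target that inhibits lipoprotein lipase, rose in each group (3.32 (SE 0.29, adjusted p = 0.0082), 3.57 (SE 0.29, adjusted p = 0.00936) and 3.90 (SE 0.29, adjusted p = 0.00172)), and was also the only list gene called in microglia-type cells (2.51 (SE 0.40, adjusted p = 0.0277)). Nr1h3, which encodes LXR alpha, rose in mild (2.98 (SE 0.33, adjusted p = 0.0106)), moderate (2.36 (SE 0.32, adjusted p = 0.0252)) and severe injury (3.02 (SE 0.33, adjusted p = 0.00414)). Lgals3, a galectin of phagocytes, also rose in each group (2.42 (SE 0.41, adjusted p = 0.0237), 2.65 (SE 0.42, adjusted p = 0.0307) and 2.23 (SE 0.41, adjusted p = 0.0218)). Apoc4, the neighbour of Apoc1, rose in moderate (5.33 (SE 0.97, adjusted p = 0.0423)) and severe injury (5.04 (SE 0.97, adjusted p = 0.0249)), with 0 and 28 UMIs in the sham libraries and at least 281 in each injured library.

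The list genes called lower with injury, 1 or 2 per group, were genes of cholesterol synthesis. Among them were Srebf2, the transcription factor of that pathway, in mild (-1.69 (SE 0.24, adjusted p = 0.0188)) and moderate injury (-1.23 (SE 0.24, adjusted p = 0.0452)) and Hmgcs1 in mild (-1.48 (SE 0.31, adjusted p = 0.0352)) and severe injury (-1.37 (SE 0.31, adjusted p = 0.0378)). Of 9 such genes tested, 2, 1 and 2 fell in the 3 groups and none rose, where 2.75%, 0.614% and 2.94% of all genes tested fell. Over the grades of injury Srebf2 (0.66 (SE 0.13, adjusted p = 0.0462) per step) and Tfec, a MITF-family factor (1.10 (SE 0.18, adjusted p = 0.0264)), were the list genes called, both rising.

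In infiltrating-type against microglia-type cells 39 list genes were higher and 9 lower of 68 tested, with a median log2 difference of 0.54, where 25.5% of all genes tested were higher and 25.9% lower, with a median of -0.02. Cst7, a cystatin (5.90 (SE 0.22, adjusted p = 3.34e-09)), Pparg, the PPAR of fat storage (4.47 (SE 0.67, adjusted p = 0.000154)), and Apoc4 (4.22 (SE 0.32, adjusted p = 1.44e-06)) were highest, and the receptor kinase Axl (-2.96 (SE 0.24, adjusted p = 1.09e-06)), the lipase Lipe (-1.61 (SE 0.49, adjusted p = 0.0162)) and the acyl-CoA ligase Acsl3 (-1.26 (SE 0.18, adjusted p = 9.25e-05)) lowest. Pparg and Lipe were near the floor. All macrophages/microglia of a library held only 5 to 28 UMIs of Pparg and 1 to 35 of Lipe, so their differences rest on few counts. Of the exporter and LXR-target genes 8 of 12 were higher and none lower, and of the droplet and esterification genes 8 of 10 were higher and 1 lower. Against the 7 other cell types, 38 of 65 list genes were higher in macrophages/microglia and 18 lower, where 39.8% of all genes tested were higher and 17.1% lower. The highest were Tfec (6.75 (SE 0.31, adjusted p = 1.09e-23)), the scavenger receptor Msr1 (6.49 (SE 0.19, adjusted p = 7.02e-32)) and Spp1, which encodes osteopontin (6.37 (SE 0.22, adjusted p = 2.24e-29)), and Lipe (-3.39 (SE 0.50, adjusted p = 8.58e-08)) and the lipocalin Apod (-2.74 (SE 0.51, adjusted p = 7.77e-06)) were among the lowest. All 9 cholesterol synthesis genes were lower.

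The genes whose levels over 70 sums of a library and cell type ran most like each of the 10 were found among 2333 genes by Pearson's r of log2(CPM + 1). The points share libraries and cell types, and r is given without a test. Fabp4 ran closest to Spp1 (r = 0.91), Cd68 (0.90) and Folr2 (0.89). Trem2 ran closest to Folr2 (0.90), C1qb (0.85) and Cd68 (0.85), where Cd68, C1qb and Folr2 were markers used for gating. Apoe ran close to Tmem176b and Pltp (0.80 and 0.78), Apoc1 to Spp1, RGD1559482 and Folr2 (0.85, 0.78 and 0.75), and Gpnmb to Ctsd, RGD1559482 and Arl11 (0.83, 0.82 and 0.82). Plin2 ran closest to Pla2g7, Msrb1 and Lyz2 (0.85, 0.81 and 0.81), and Fabp5 to Erp29, Lgals3 and Ckb (0.80, 0.76 and 0.75). Abca1 ran close to Npl and Lhfpl2 (0.72 and 0.69). For Abcg1 the closest were Abi3, Inpp5d and Fermt3 (0.76, 0.76 and 0.74), and for Lpl Dab2, Fcgrt and Slco2b1 (0.73, 0.69 and 0.69).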

How the data were processed

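Per the labels and the deposited file headers, the authors made 10x 3′ libraries and counted UMIs with Cell Ranger (version 5.0.1 in the header, 6.0.1 in the supplementary methods) on Rnor_6.0. The deposited values are raw UMI counts per gene and cell barcode, 31482153 to 131045446 per library. Here cells over 10% mitochondrial UMIs or beyond 2 SD in UMIs or genes, and the 7.7% of barcodes with the highest doublet scores (scanpy 1.11.5), were removed. Each cell was gated by its mean scaled marker level (minimum 0.15, lead 0.05; subclasses 0.1 and 0.05), and limits were set from marker levels alone. Some markers and Cd36 were not matched by symbol and were not analysed here. UMIs were summed per library and type (at least 20 cells) and tested with edgeR 4.0.16 (quasi-likelihood, TMM, filterByExpr, Benjamini-Hochberg, threshold 0.05, R 4.3.3); DESeq2 1.42.0 and the other settings of the closing section were alternatives. On simulated counts for severe against sham (13069 genes), 88% and 94% of 50 genes changed by -2 and 2 (log2), and 16% and 22% of those changed by -1 and 1, were recovered. The simulation gave every gene a dispersion (spread beyond counting) of 0.05 and both sham libraries equal means. Changed genes were drawn from those with over 20 expected UMIs. The real sham libraries differed from each other, so these shares do not give the power of the real tests. The members, lists and tests were chosen with earlier results of these data known. From the pathway list, the text names up to 3 largest called rises and falls per comparison, or every called gene where 5 or fewer were called. Some genes that these rules would name are not reported here. 95% intervals are the SE times the normal quantile. They are narrower than the edgeR tests imply, so an interval can exclude 0 where the unadjusted p is over 0.05. For Abca1 in mild injury the interval ran from 0.09 to 1.40, with an unadjusted p of 0.0571 by edgeR.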

Additional observations from a re-analysis of the deposited data

Results flagged for a closer look

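Fabp4 was the one gene of the 10 found above both sham libraries, in every injured library, in cells that entered no comparison. These were the cells outside every cell type gate, 26 to 1410 per library. In the 2 sham libraries they held 23.3 and 6.07 CPM of Fabp4, and in the 6 injured libraries 39.7 to 351.8 CPM, with a median of 144.5 CPM. Sham replicate 2 held only 26 of these cells, so its values rest on very few UMIs. Apoc1 missed the same pattern by little, with 36.4 CPM in sham replicate 2 and 34.7 CPM in the lowest injured library. The share of all genes with this pattern is not given here. What these cells were was not tested.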

How the results depend on the processing

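Of 520 fold changes of the 10 genes refitted under other settings, 466 kept their direction and their side of the threshold, 39 passed it newly, 11 lost it and 4 changed sign. Of 540 refitted without 1 library, these numbers were 460, 28, 36 and 16. The number of libraries per group limits the precision, so a gene that missed the threshold is not shown to be unchanged. What made the counts below move was not tested, except where fewer genes or libraries entered.

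DESeq2 called 2250 genes in mild (866 by edgeR), 1357 in moderate (295) and 2340 in severe injury (1075), 1080 over the grades (247) and 386 in microglia-type cells (90). Its higher and lower calls were 1056 and 1194 in mild (499 and 367 by edgeR), 713 and 644 in moderate (213 and 82), 661 and 419 over the grades (191 and 56), 184 and 202 in microglia-type cells (22 and 68) and 3286 and 5245 against the other cell types (4873 and 2093). It called 5 of the 10 genes in mild, 7 in moderate, 3 over the grades and 5 in microglia-type cells. With no filter on low counts 2390, 1718, 2480, 508 and 999 genes were called in these 5 comparisons, with 909 higher and 809 lower in moderate and 1253 and 1227 in severe injury, and 6, 8, 2 and 6 of the 10 in mild, in moderate, over the grades and in microglia-type cells.

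Scaling by library size only moved the median log2 value of all genes to -0.13 in mild, -0.59 in severe injury, -0.21 over the grades, -0.23 in infiltrating-type against microglia-type cells and -0.16 against the other cell types. It called 192 genes in moderate and 2413 in severe injury and 77 over the grades. Higher and lower calls were 342 and 445 in mild, 403 and 2010 in severe injury (682 and 393 by TMM), 44 and 33 over the grades, 1927 and 4580 between the subclasses (2915 and 2968) and 3146 and 3402 against the other types. The slopes over the grades turned to -0.083 for Fabp5, -0.11 for Abcg1 and -0.089 for Trem2. The stricter gate gave 445 genes in moderate injury and 1 of the 10 over the grades, as did the 20% mitochondrial limit, under which Lpl in microglia-type cells was 0.072. Without doublet removal 161 genes were called over the grades.

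Fitted with only the 2 groups compared, edgeR called 0 genes in mild and moderate and 109 in severe injury, with 3114 and 1977 at an unadjusted p under 0.05 in the first pair, and 0, 0 and 2 of the 10 genes. Libraries with the same replicate number did not all deviate together, with correlations of their deviations from -0.23 to 0.23 between groups. With the replicate number as a block 289, 90 and 611 genes were called in mild, moderate and severe injury, 109 over the grades and 42 in microglia-type cells, with 76 higher and 14 lower in moderate injury, and the block moved no count of the 10 genes past 1.5 times.

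Without 1 library at a time, the genes called ran from 0 to 2106 in mild, 0 to 1416 in moderate, 132 to 1971 in severe injury, 1 to 414 over the grades, 9 to 993 in microglia-type cells, 5107 to 6181 between the subclasses and 6110 to 6959 against the other types. Of the 10 genes 0 to 7, 0 to 7, 2 to 8, 0 to 2 and 0 to 6 were called in the first 5. The counts of 0 came without a mild replicate (1930 and 2483 at an unadjusted p under 0.05) and without moderate replicate 2 (1499).

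Signs changed without 1 library for Trem2, Lpl, Abcg1 and Gpnmb. From the fit without sham replicate 1 to that without sham replicate 2, Trem2 ran from -0.33 to 1.81 in mild, -0.49 to 1.68 in moderate, -0.13 to 2.02 in severe injury and -0.40 to 1.78 in microglia-type cells, Lpl from -0.40 to 0.28 in moderate injury and -0.33 to 0.35 in microglia-type cells, and Abcg1 from -0.18 to 1.19 in microglia-type cells. Trem2 was also -0.18 in mild injury without mild replicate 2. The slopes over the grades ran from -0.041 without mild replicate 1 to 0.36 without mild replicate 2 for Trem2, from -0.084 without severe replicate 1 to 0.31 without severe replicate 2 for Abcg1, and from -0.13 without severe replicate 1 to 0.041 without mild replicate 2 for Gpnmb. Thinned to 500 UMIs, the share of cells with a UMI was 1.08% for Lpl, 1.83% for Abcg1 and 28.6% for Trem2, and the other shares and levels moved by less than 1 SD.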
